A study of Mus musculus with 12 samples.

Results

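The 10 genes described here, Per1, Per2, Per3, Cry1, Cry2, Clock, Nr1d1, Nr1d2, Dbp and Tef, belong to the circadian clock of mouse cells. They were chosen by name, with earlier results of these data known, and matched by symbol to Ensembl gene identifiers. Each of the 10 was found among the 49671 genes listed for each library. All 10 also passed the filter on low counts (more than 1 read in 3 or more libraries), which left 18668 genes for testing. Their counts were never low, with 181 reads in the library where any of them was lowest and 4483 where any was highest.

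RNA-seq was performed on NIH 3T3 cells, an immortalized fibroblast line from mouse embryos, with 12 libraries split evenly over 4 groups, 3 in each. All cells were transfected with siRNA, either a negative control or a single siRNA against total Lap2, whose isoforms are all products of the Tmpo gene. Serum-starved cells were kept in 0.3% FBS, and serum-stimulated cells received 15% FBS for 45 min. The 4 groups were therefore control siRNA in 0.3% FBS, control siRNA in 15% FBS, Lap2 siRNA in 0.3% FBS and Lap2 siRNA in 15% FBS. Every group went through transfection, and the knockdown was made with that 1 siRNA only. The labels do not say that the 3 libraries of a group came from separate cultures, so the p-values measure the spread between these libraries, which may be technical.

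The circadian clock is a feedback loop of transcription. The proteins CLOCK and BMAL1 (made by Arntl) bind E-boxes and drive the Per and Cry genes, whose proteins then repress CLOCK and BMAL1, while the nuclear receptors made by Nr1d1 and Nr1d2 repress Arntl and form a further loop. Dbp and Tef are transcription factors of the PAR bZIP family that bind D-boxes and carry the rhythm to output genes. In cultured fibroblasts, a high dose of serum is a classical way to set the clocks of all cells in a dish to the same phase, and Per1 and Per2 are known as its immediate targets.

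A few promoter windows are printed here, from genes that rose or fell with serum, because they hold E-boxes, D-boxes or the core of a CRE. RefSeq promoter windows of 300 bases (250 before and 50 after an annotated start, build GRCm38.p6) were available for 9 of the 10 genes, 13 windows in all. Per2 had no entry. Both strands were searched for the E-box CACGTG, the cAMP response element CRE as TGACGTCA, its core TGACG, the D-box TTATGTAA or TTACGTAA, the RORE core TAGGTCA or TGGGTCA, and the CArG box bound by SRF. The CRE contains its own core, and no other 2 of these words are nested. Capitals mark every match, and the sequences run 5′ to 3′ along the strand of the gene.
Per1 first start, chr11:69098699-69098998, + strand: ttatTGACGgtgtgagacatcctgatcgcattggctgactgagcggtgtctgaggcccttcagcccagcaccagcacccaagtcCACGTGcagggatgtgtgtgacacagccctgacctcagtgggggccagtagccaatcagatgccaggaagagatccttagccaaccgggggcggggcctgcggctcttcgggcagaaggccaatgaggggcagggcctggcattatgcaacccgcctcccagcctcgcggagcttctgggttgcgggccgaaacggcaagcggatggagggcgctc
Per1 second start, chr11:69099902-69100201, + strand: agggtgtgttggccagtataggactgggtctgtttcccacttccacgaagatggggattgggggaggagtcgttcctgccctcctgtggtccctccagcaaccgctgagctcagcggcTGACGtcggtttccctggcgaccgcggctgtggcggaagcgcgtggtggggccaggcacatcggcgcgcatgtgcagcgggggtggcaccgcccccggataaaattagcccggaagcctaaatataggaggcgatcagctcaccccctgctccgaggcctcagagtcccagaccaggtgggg
Per3, chr4:151044616-151044915, − strand: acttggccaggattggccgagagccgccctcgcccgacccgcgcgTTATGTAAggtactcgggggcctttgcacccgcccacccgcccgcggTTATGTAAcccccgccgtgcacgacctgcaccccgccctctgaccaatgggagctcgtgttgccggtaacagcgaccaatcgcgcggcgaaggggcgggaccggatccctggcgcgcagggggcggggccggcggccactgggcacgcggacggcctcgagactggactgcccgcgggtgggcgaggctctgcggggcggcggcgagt
Cry1, chr10:85185005-85185304, − strand: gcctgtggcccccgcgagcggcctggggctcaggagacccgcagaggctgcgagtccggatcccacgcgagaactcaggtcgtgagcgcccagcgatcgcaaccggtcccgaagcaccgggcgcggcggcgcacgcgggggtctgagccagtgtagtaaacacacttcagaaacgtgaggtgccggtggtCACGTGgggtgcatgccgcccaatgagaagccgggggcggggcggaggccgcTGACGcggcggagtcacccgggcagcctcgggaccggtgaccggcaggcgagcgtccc
Tef first start, chr15:81802423-81802722, + strand: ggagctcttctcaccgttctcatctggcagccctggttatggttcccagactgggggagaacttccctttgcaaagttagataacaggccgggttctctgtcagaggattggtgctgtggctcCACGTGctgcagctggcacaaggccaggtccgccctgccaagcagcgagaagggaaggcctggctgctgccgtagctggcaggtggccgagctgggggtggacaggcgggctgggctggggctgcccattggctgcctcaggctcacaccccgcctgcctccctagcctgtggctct

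E-boxes were found for 3 of the 9 genes, Per1, Cry1 and Tef, against 8.09% of the 27025 genes in the promoter table. The Per1 E-box lay 166 bases before the first of its starts with a window, that of Cry1 60 bases before its start, and those of Tef 127 and 138 bases before its respective starts. Both Per1 windows lay downstream of the annotated start of the gene (chromosome 11, 69095217). The CRE core was found for Per1, Cry1 and Cry2, and 23% of all genes had it. Per3 alone held D-boxes, with the word TTATGTAA at 205 and at 158 bases before the start, and 1.23% of all genes had a D-box. The complete CRE (2.03% of all genes), the RORE core (7.35%) and the CArG box (1.81%) had no match in any of the 13 windows. These matches are descriptions of letters in a short window.

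The targeted gene was checked first. Tmpo counts, normalized for library size as described below, were 2775, 2805 and 2885 with control siRNA in 0.3% FBS and 3264, 3243 and 3019 in 15% FBS. They were 982, 1176 and 1093 with Lap2 siRNA in 0.3% FBS and 767, 745 and 607 in 15% FBS, so that every Lap2 siRNA library lay below every control library. The log2 fold change was -1.38 ± 0.08 (SE) in 0.3% FBS and -2.17 ± 0.08 in 15% FBS, with edgeR adjusted p of 8.73e-16 and 3.77e-19. Tmpo was thus at 38.4% of control in 0.3% FBS and at 22.2% in 15% FBS, a log2 difference of -0.79 ± 0.11 (edgeR adjusted p = 2.95e-06). Comparisons of Lap2 siRNA between the serum conditions were therefore made at unequal Tmpo RNA. Total counts ranged from 18026298 to 26265253. The labels number all libraries in a single run, so replicates were numbered here by their order within each group. Replicate 1 of Lap2 siRNA in 0.3% FBS stood apart, with a chi-square per degree of freedom of 20.2 and 19.0 against the other replicates of its group, which differed from each other by 2.57, while pairs in the other groups reached at most 7.62. Without it, Lap2 siRNA in 0.3% FBS still lowered Dbp (-1.28, edgeR adjusted p = 2.43e-13), Tef (-0.60, 7.77e-11), Per3 (-0.55, 2.96e-06) and Cry1 (-0.36, 0.0039) and raised Nr1d2 (0.43, 3.76e-04), the difference between the serum responses was 0.94 for Dbp (5.40e-06), 0.43 for Tef (1.27e-04) and -0.57 for Per2 (0.00191), and the calls gained without it are given with the genes concerned. Of 8 fibroblast markers, 5 were lower and 2 higher with Lap2 siRNA in 0.3% FBS, where 18.6% of all genes fell and 17.8% rose. In 15% FBS 6 were lower and 0 higher, beside 12.1% and 11.4% of all genes. Their summed normalized counts ranged from 801927 to 832780 and from 854490 to 939789 with control siRNA in 0.3% and 15% FBS, and from 505060.0 to 610470.1 and from 610478 to 678847 with Lap2 siRNA. These sums rest mostly on Col1a1, Col1a2, Col3a1, Vim and Fn1. With Lap2 siRNA in 0.3% FBS the mean of Fn1 was higher (197350 against 152220), and those of the others were lower. Summed markers of epithelial, endothelial and leukocyte cells reached at most 53.9 in any library, and Cd3e was at 0 in all libraries. The part of the change in fibroblast genes in the results below was not tested. In bulk RNA, fewer cells that express a gene and less RNA of it per cell cannot be told apart.

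Values below are normalized counts, that is, counts divided by the library size after TMM scaling and multiplied by the average such size (21092260). Log2 fold changes are given with their standard error, and a gene was said to rise or fall where edgeR's quasi-likelihood test, adjusted by Benjamini-Hochberg over all 18668 genes, gave a p under 0.05. TMM sets the bulk of the genes to no change. Scaling to total counts in its place shifted the median log2 fold change of all genes by -0.21 for serum with control siRNA and -0.23 for serum with Lap2 siRNA. The shift was 0.11 for Lap2 siRNA in 0.3% FBS and 0.09 in 15% FBS, so that directions are relative to the bulk of the genes. For serum with control siRNA, 2915 genes were higher and 2597 lower under TMM, and 1632 and 5847 under total counts. The same split was 3420 to 2777 and 1658 to 5951 for serum with Lap2 siRNA, 3330 to 3480 and 4692 to 2638 for Lap2 siRNA in 0.3% FBS, and 2125 to 2250 and 3471 to 1678 for Lap2 siRNA in 15% FBS.

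**Figure D1:**
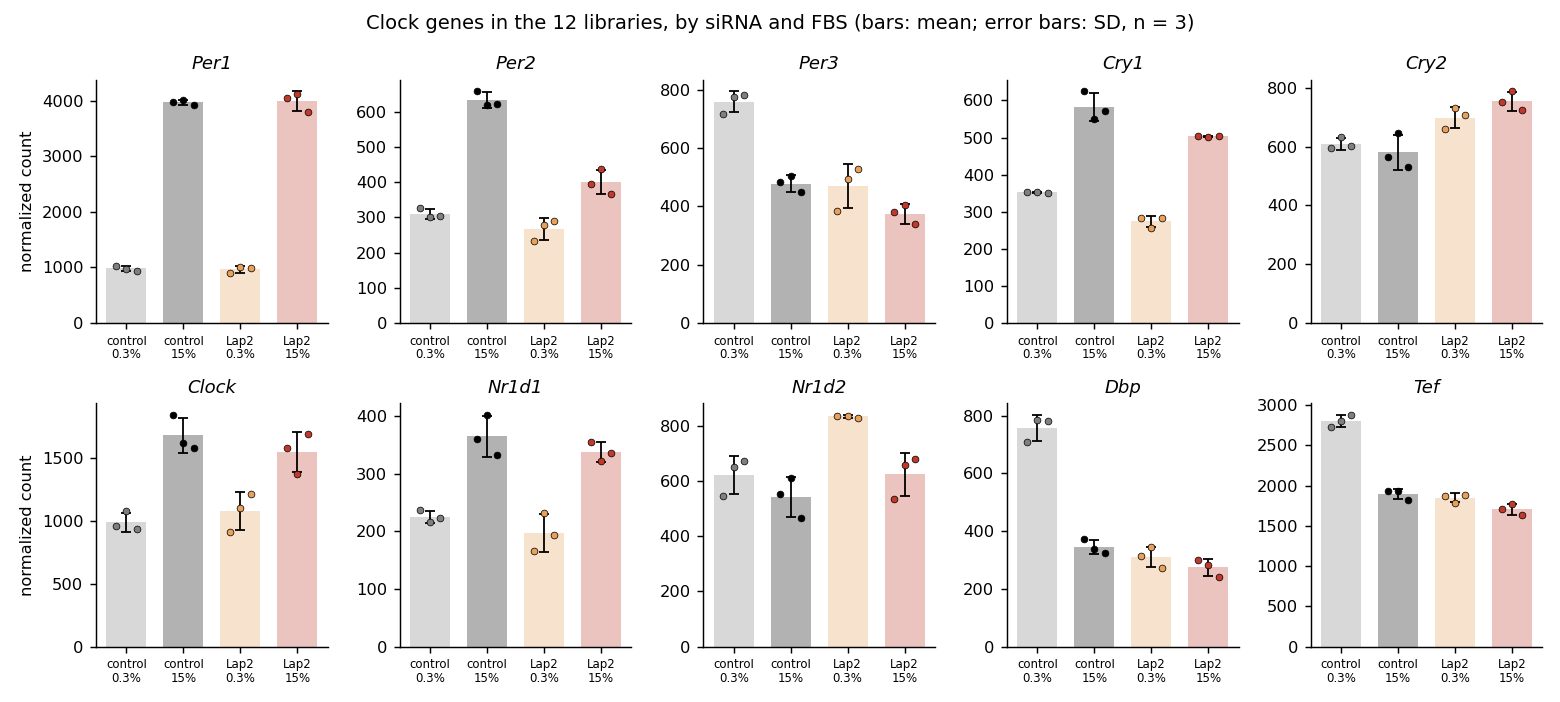
Normalized count (vertical axis of each panel, from 0) of the 10 clock genes in the 12 libraries. Points are libraries, bars are means of 3 libraries and error bars are the SD. The mean of Per1 went from 980.3 to 3968 with control siRNA and from 965 to 3991 with Lap2 siRNA, whereas Dbp and Tef were high in serum-starved control cells and low in the other 3 groups.

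Serum stimulation of control siRNA treated cells raised 5 of the 10 clock genes (Per1, Per2, Cry1, Clock and Nr1d1) and lowered 3 (Per3, Dbp and Tef) within 45 min. Of all 18668 genes tested, 15.6% rose and 13.9% fell in the same comparison. Only 10449 of these genes averaged 100 or more normalized counts. Genes with few reads are harder to call, so shares over all genes are not matched to the level of the clock genes. In Lap2-depleted cells serum also raised 5 of the 10, the same 5 genes, and lowered 2, Per3 and Nr1d2, where 18.3% of all genes rose and 14.9% fell. The median log2 fold change of the 10 genes was 0.31 under control siRNA and 0.32 in Lap2-depleted cells, beside -0.01 and 0.00 over all genes tested. The largest rise was that of Per1 and the largest fall that of Dbp with control siRNA.

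Of the 3 Period genes, whose proteins are the repressors at the heart of the loop, Per1 and Per2 rose with serum and Per3 fell. Per1 (chromosome 11, 69095217 to 69109960, + strand) was at 1028, 978 and 935 in the serum-starved and at 3978, 4003 and 3923 in the serum-stimulated control libraries. With Lap2 siRNA it was at 896, 1010.1 and 988 in 0.3% FBS and at 4056, 4127 and 3791 in 15% FBS. All 6 serum-stimulated libraries lay about 4 times as high as the 6 starved ones, and within a serum condition the siRNA groups overlapped. The serum response was 4.05-fold with control siRNA (log2 fold change 2.02 ± 0.07, edgeR adjusted p = 1.73e-22) and 4.14-fold with Lap2 siRNA (2.05 ± 0.07, adjusted p = 1.66e-22). These rises ranked 620th and 606th from the highest among the 18668 genes. The difference between the responses was 0.03 on the log2 scale, with a 95% interval from -0.16 to 0.22 (edgeR adjusted p = 0.879).

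Per2 (chromosome 1, 91415982 to 91459324, − strand) started from a lower level and rose less. Control libraries held 326, 299.8 and 303 normalized counts in 0.3% FBS and 658, 618 and 622 in 15% FBS. Lap2 siRNA libraries held 232, 279 and 289 in 0.3% FBS and 396, 437 and 367 in 15% FBS. The serum-stimulated Lap2 libraries thus stood above all starved libraries and below all stimulated control libraries, and no 2 of the 4 groups overlapped. Serum raised Per2 2.05-fold with control siRNA (log2 fold change 1.03 ± 0.10, edgeR adjusted p = 1.45e-10) and to 150.1% of its starved level with Lap2 siRNA (0.59 ± 0.10, adjusted p = 2.19e-05). In 15% FBS, Per2 was lower by -0.66 ± 0.10 with Lap2 siRNA than with control siRNA (edgeR adjusted p = 2.12e-06), a 1.58-fold difference. In 0.3% FBS the difference was -0.22, with a 95% interval from -0.43 to -0.01 and an edgeR adjusted p of 0.105. The serum response itself was smaller with Lap2 siRNA by 0.45 on the log2 scale (difference -0.45 ± 0.14, edgeR adjusted p = 0.0299). That call was lost without any 1 of 6 libraries, namely replicate 2 of control siRNA in 0.3% FBS (adjusted p = 0.073), replicate 1 of control siRNA in 15% FBS (0.0704), replicates 2 and 3 of Lap2 siRNA in 0.3% FBS (0.0539 and 0.0666) and replicates 1 and 3 of Lap2 siRNA in 15% FBS (0.0645 and 0.0807).

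Per3 (chromosome 4, 151003652 to 151044665, − strand) moved in the opposite direction. Its levels were 719, 777 and 784 in serum-starved control cells and 484, 503 and 448 after serum. In Lap2-depleted cells they were 386, 495 and 528 in 0.3% FBS and 381, 405 and 338 in 15% FBS. The starved control libraries were the highest 3 of the 12, and the other groups overlapped in part. Serum lowered Per3 with control siRNA (log2 fold change -0.67 ± 0.10, edgeR adjusted p = 1.34e-06) and with Lap2 siRNA (-0.32 ± 0.10, adjusted p = 0.014). Lap2 siRNA lowered it in 0.3% FBS (-0.70 ± 0.10, edgeR adjusted p = 5.41e-07) and in 15% FBS (-0.36 ± 0.10, adjusted p = 0.00993). The serum response with Lap2 siRNA was no longer called without replicate 3 of Lap2 siRNA in 0.3% FBS (adjusted p = 0.0917) or in 15% FBS (0.0959), and the difference in 15% FBS was no longer called without the latter (0.0813) or under total counts (0.0502). The difference between the serum responses, 0.34 with a 95% interval from 0.05 to 0.63, did not pass the test (edgeR adjusted p = 0.119).

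The cryptochromes, which bind the Period proteins and repress CLOCK and BMAL1 with them, did not move as a pair. Cry1 (chromosome 10, 85131700 to 85185064, − strand) was at 353, 352 and 351 in serum-starved and 625, 550.0 and 571 in serum-stimulated control cells. Under Lap2 siRNA it was at 282, 257 and 283 in 0.3% FBS and at 505, 502 and 503 in 15% FBS. The 4 groups did not overlap at any point, with both stimulated groups above both starved ones and Lap2 siRNA below control siRNA in each. Cry1 rose with serum by 0.73 ± 0.09 with control siRNA and by 0.88 ± 0.09 with Lap2 siRNA (edgeR adjusted p = 3.98e-08 and 2.04e-09). Lap2 siRNA lowered it in 0.3% FBS (-0.36 ± 0.09, edgeR adjusted p = 0.00242). The difference of -0.21 in 15% FBS had a 95% interval from -0.39 to -0.03 and an adjusted p of 0.0787. That difference passed the test under filterByExpr (-0.22, adjusted p = 0.043) and in the fit of only the 2 groups compared (-0.22, 0.0362). It also passed without replicate 1 of Lap2 siRNA in 0.3% FBS (-0.22, 0.039). Cry2 (chromosome 2, 92403646 to 92434043, − strand) was at 594, 633 and 601 in starved and at 563, 645 and 531 in stimulated control cells, which overlapped. With Lap2 siRNA it was at 659, 730.3 and 707 in 0.3% FBS and at 752, 788 and 724 in 15% FBS, each library above every control library. A serum response of Cry2 was not detectable, at -0.07 with a 95% interval from -0.24 to 0.10 with control siRNA and at 0.11 with an interval from -0.06 to 0.28 with Lap2 siRNA (edgeR adjusted p = 0.604 and 0.343). Cry2 was higher with Lap2 siRNA in 15% FBS (0.38 ± 0.08, edgeR adjusted p = 7.94e-04), and the difference of 0.20 in 0.3% FBS, with an interval from 0.03 to 0.37, had an adjusted p of 0.0646. The scaling decided calls for Cry2: under total counts it fell with serum under control siRNA (-0.28, adjusted p = 0.00868), and the rise with Lap2 siRNA in 0.3% FBS passed the test under total counts (0.31, 0.0036), upper-quartile factors (0.21, 0.0443) and DESeq2 (0.21, 0.048), and without replicate 1 of Lap2 siRNA in 0.3% FBS (0.25, 0.0171). The serum responses differed between the siRNAs by 0.15 for Cry1 (interval from -0.11 to 0.41) and 0.18 for Cry2 (from -0.06 to 0.42), with edgeR adjusted p of 0.52 and 0.367.

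Clock (chromosome 5, 76209868 to 76304792, − strand), which encodes the partner of BMAL1, was at 957, 1073 and 929.8 in serum-starved and 1838, 1615 and 1575 in serum-stimulated control cells. In Lap2-depleted cells its levels were 912, 1101 and 1211 in 0.3% FBS and 1573, 1372 and 1688 in 15% FBS. All stimulated libraries were above all starved ones, and the siRNA groups overlapped in each serum condition. Serum raised Clock 1.70-fold with control siRNA and 1.44-fold with Lap2 siRNA (log2 fold changes 0.76 ± 0.09 and 0.53 ± 0.09, edgeR adjusted p = 1.81e-08 and 1.60e-05). Differences between the siRNAs were 0.12 in 0.3% FBS (95% interval from -0.07 to 0.31) and -0.12 in 15% FBS (from -0.30 to 0.06), with edgeR adjusted p of 0.333 and 0.389. The serum responses differed by -0.24 (interval from -0.50 to 0.02, edgeR adjusted p = 0.244). Without replicate 1 of Lap2 siRNA in 0.3% FBS that difference was -0.37 and passed the test (adjusted p = 0.00894), and the rise with Lap2 siRNA in 0.3% FBS did so too (0.24, adjusted p = 0.0144).

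The nuclear receptors REV-ERBα and REV-ERBβ, encoded by Nr1d1 and Nr1d2, went separate ways. Nr1d1 (chromosome 11, 98767932 to 98775333, − strand) was at 237, 217 and 222 in starved and at 359, 402 and 332 in stimulated control cells. With Lap2 siRNA it was at 166, 231 and 194 in 0.3% FBS and at 355, 321 and 336 in 15% FBS. Serum-stimulated libraries were all above serum-starved ones, and control and Lap2 siRNA overlapped. Nr1d1 rose 1.62-fold and 1.72-fold with serum under control and Lap2 siRNA (log2 fold changes 0.70 ± 0.11 and 0.78 ± 0.12, edgeR adjusted p = 7.73e-06 and 1.95e-06). The siRNAs differed by -0.20 in 0.3% FBS (95% interval from -0.44 to 0.05) and by -0.11 in 15% FBS (from -0.34 to 0.11), with edgeR adjusted p of 0.218 and 0.541. Nr1d2 (chromosome 14, 18204054 to 18239127, − strand) was at 546, 652 and 675 in starved and at 555, 611 and 467 in stimulated control cells. In Lap2-depleted cells it was at 838, 838 and 829 in 0.3% FBS, above all 9 other libraries, and at 535, 661 and 680.2 in 15% FBS. Lap2 siRNA raised Nr1d2 in 0.3% FBS (0.42 ± 0.10, edgeR adjusted p = 6.90e-04), and serum lowered it in Lap2-depleted cells (-0.42 ± 0.10, adjusted p = 9.36e-04). With control siRNA the serum difference was -0.19 (interval from -0.40 to 0.01, edgeR adjusted p = 0.152), which passed the test under total counts (-0.40, adjusted p = 0.00144) and upper-quartile scaling (-0.29, 0.0225), and without replicate 1 of control siRNA in 0.3% FBS (-0.28, 0.0471) or replicate 2 of control siRNA in 15% FBS (-0.29, 0.0497). In 15% FBS the siRNAs differed by 0.20 (interval from 0.00 to 0.40, edgeR adjusted p = 0.164), which passed the test under total counts (0.29, 0.0315) and without replicate 1 of Lap2 siRNA in 15% FBS (0.30, 0.0406). The serum responses differed by 0.08 for Nr1d1 (from -0.25 to 0.42) and -0.22 for Nr1d2 (from -0.50 to 0.06), with edgeR adjusted p of 0.815 and 0.35.

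Dbp and Tef, the PAR bZIP genes, shared a pattern, high in serum-starved control cells and lower in the other 3 groups. Dbp (chromosome 7, 45705088 to 45710203, + strand) was at 707, 784 and 782 in starved control cells and at 372, 338 and 322 after serum. Lap2 siRNA gave 315, 343 and 272 in 0.3% FBS and 299, 283 and 240.6 in 15% FBS. The starved control libraries were the highest 3 of the 12 by a wide gap, and the starved Lap2 libraries overlapped with both stimulated groups. Serum lowered Dbp 2.20-fold with control siRNA (log2 fold change -1.14 ± 0.10, edgeR adjusted p = 2.43e-11). With Lap2 siRNA the serum difference was -0.18, with a 95% interval from -0.40 to 0.04 (edgeR adjusted p = 0.22). Lap2 siRNA lowered Dbp 2.44-fold in 0.3% FBS (-1.29 ± 0.10, edgeR adjusted p = 2.23e-12) and 1.26-fold in 15% FBS (-0.33 ± 0.11, adjusted p = 0.0204). The call in 15% FBS was lost without replicate 1 of control siRNA in 15% FBS (adjusted p = 0.105), without replicate 3 of Lap2 siRNA in 15% FBS (0.158) and under total counts (0.0887). The serum responses differed by 0.95 ± 0.15 between Lap2 and control siRNA (edgeR adjusted p = 1.41e-05), a difference between 0.84 and 1.04 whichever library was left out.

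Tef (chromosome 15, 81802421 to 81826861, + strand) had the highest level per kilobase of exon among the 10 genes in starved cells. It was at 2725, 2806 and 2874 in serum-starved control cells and at 1933, 1938 and 1826 in serum-stimulated ones. Lap2 siRNA libraries were at 1872, 1782 and 1885 in 0.3% FBS and at 1706, 1773 and 1635 in 15% FBS. The starved control libraries stood alone, and the starved Lap2 libraries lay within the range of the stimulated control libraries or just below it. Serum lowered Tef 1.48-fold with control siRNA (log2 fold change -0.56 ± 0.06, edgeR adjusted p = 7.16e-09), and Lap2 siRNA lowered it 1.52-fold in 0.3% FBS (-0.60 ± 0.06, adjusted p = 1.76e-09). Among Lap2-depleted cells the serum difference was -0.12 (95% interval from -0.25 to 0.01, edgeR adjusted p = 0.179). In 15% FBS the siRNAs differed by -0.16 (from -0.29 to -0.03, adjusted p = 0.077). The latter passed the test under filterByExpr (-0.16, 0.037), with only the 2 groups compared (-0.17, 0.0223) and with DESeq2 (-0.17, 0.0207). It also passed without replicate 1 of Lap2 siRNA in 0.3% FBS (-0.17, 0.0192) or replicate 3 of control siRNA in 15% FBS (-0.19, 0.0496). The responses to serum differed by 0.45 ± 0.09 (edgeR adjusted p = 5.53e-04). For serum with Lap2 siRNA, the choice of scaling decided the call: under total counts Dbp fell by 0.41 (adjusted p = 0.00245) and Tef by 0.35 (4.49e-05), and under upper-quartile factors they fell by 0.29 (0.037) and 0.23 (0.00531), while the differences between the responses passed the test under each scaling.

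**Figure D2:**
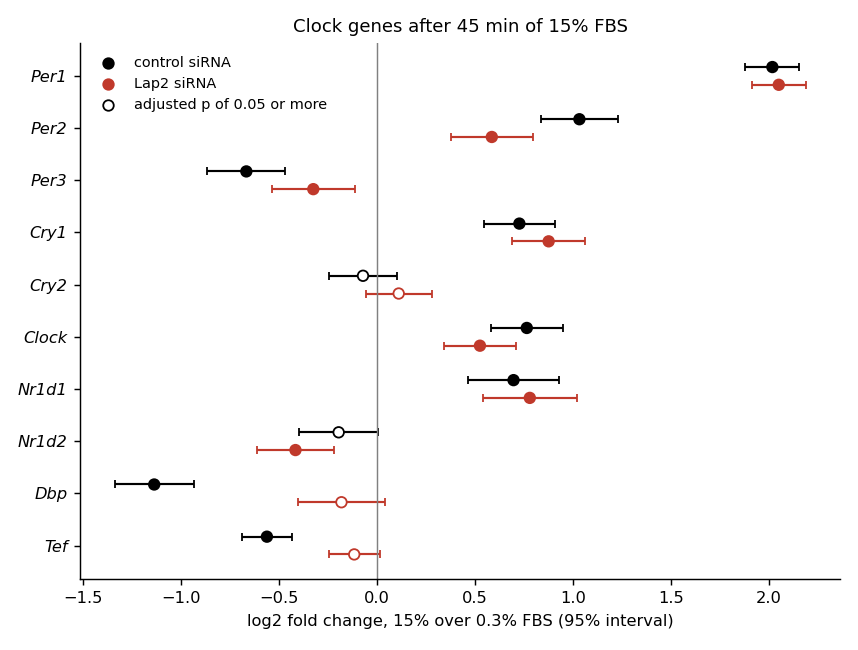
Log2 fold change after serum (horizontal axis, 15% over 0.3% FBS) of the 10 clock genes with control siRNA (black) and Lap2 siRNA (red). Bars are 95% intervals and open circles did not pass the test. Per1 was at 2.02 and 2.05, while Dbp was at -1.14 with control siRNA and -0.18 with Lap2 siRNA.

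Lap2 siRNA in serum-starved cells lowered 4 of the 10 clock genes (Dbp, Per3, Tef and Cry1) and raised 1, Nr1d2, where 18.6% of all genes tested fell and 17.8% rose. In serum-stimulated cells it lowered 3 (Per2, Per3 and Dbp) and raised 1, Cry2, where 12.1% of all genes fell and 11.4% rose. The count of 3 depended on single libraries and on the scaling: it was 1 under total counts and without replicate 3 of Lap2 siRNA in 15% FBS, in both of which Per3 and Dbp were lost, and 5 without replicate 1 of Lap2 siRNA in 0.3% FBS, where Cry1 and Tef were added. The genes lowered in both conditions under TMM with all libraries were Per3 and Dbp. Medians of the 10 log2 fold changes were -0.21 in 0.3% FBS and -0.14 in 15% FBS, beside 0.01 and 0.02 over all genes. The response to serum was more positive with Lap2 siRNA for 2 of the 10, Dbp and Tef, and more negative for 1, Per2, beside 7.09% and 6.51% of all genes. The siRNA difference in 0.3% FBS, the serum response with Lap2 siRNA and the difference between the responses all use the starved Lap2 libraries. A low level of a gene there enters each of them. The starved control libraries likewise enter the serum response with control siRNA, the siRNA difference in 0.3% FBS and the difference between the responses. For Dbp, Tef and Per3 the starved control libraries were the highest of all, so their values in these comparisons are not independent of each other.

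**Figure D3:**
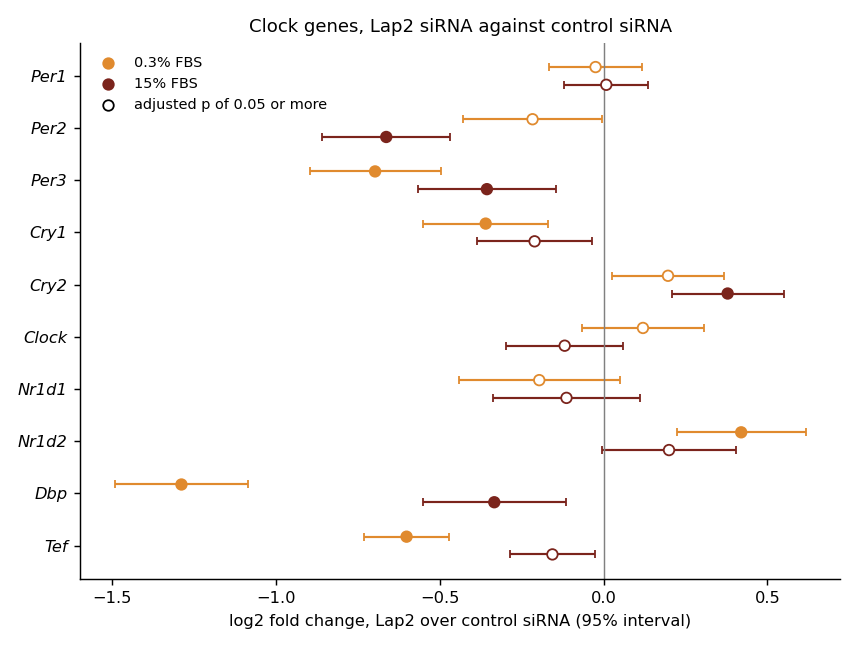
Log2 fold change with Lap2 siRNA over control siRNA (horizontal axis) of the 10 clock genes in 0.3% FBS (orange) and 15% FBS (dark red). Bars are 95% intervals and open circles did not pass the test. Dbp was at -1.29 in 0.3% FBS and -0.33 in 15% FBS, and Per2 at -0.22 and -0.66.

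Levels of different genes were compared per kilobase of exon, since a longer transcript collects more reads. The length was that of all annotated exons of a gene merged (2993 bases for Dbp and 13727 for Clock), not that of the transcripts present. The SD between libraries does not cover an error in that length. In serum-starved control cells Tef was highest with 356 ± 9.43 normalized counts per kilobase (SD, n = 3), followed by Dbp with 253 ± 14.8 and Per1 with 174 ± 8.21. Nr1d2 at 115 ± 12.8 and Cry1 at 105 ± 0.411 did not differ beyond their spread, and Cry2 followed at 96.4 ± 3.27. Per3 at 79.1 ± 3.70, Nr1d1 at 73.2 ± 3.34 and Clock at 71.9 ± 5.53 formed a group whose neighbours overlapped, and Per2 was lowest at 52.9 ± 2.42. After serum with control siRNA, Per1 was highest at 705 ± 7.23 per kilobase, with Tef at 241.3 ± 8.05 and Cry1 at 174 ± 11.5 next. Clock (122 ± 10.4), Nr1d1 (118 ± 11.3), Dbp (115 ± 8.44), Per2 (108 ± 3.78) and Nr1d2 (101 ± 13.4) then lay too close together for their spread to separate neighbours. Cry2 at 91.7 ± 9.30 overlapped with Nr1d2, and Per3 was lowest at 49.8 ± 2.92. In starved Lap2-depleted cells Tef at 235 ± 7.14 was again highest, followed by Per1 at 171 ± 10.7 and Nr1d2 at 154 ± 0.980. Cry2 at 111 ± 5.72 and Dbp at 104 ± 12.0 overlapped, as did the neighbours among Cry1 (82.0 ± 4.43), Clock (78.3 ± 11.0), Nr1d1 (64.0 ± 10.6), Per3 (48.9 ± 7.78) and Per2 (45.6 ± 5.19). In stimulated Lap2-depleted cells the order began with Per1 at 709 ± 31.4, Tef at 217 ± 8.79 and Cry1 at 151 ± 0.485. Cry2 (119 ± 5.09), Nr1d2 (116 ± 14.6), Clock (113 ± 11.6) and Nr1d1 (109.7 ± 5.43) overlapped with their neighbours, and Dbp at 91.6 ± 10.1, Per2 at 68.3 ± 5.98 and Per3 at 39.0 ± 3.53 followed apart from each other.

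Across the 12 libraries, correlations between the clock genes on the log2 scale ran from strongly positive to negative. Dbp and Tef had the highest correlation (Pearson's r = 0.98), and Per3 correlated with Tef at 0.95 and with Dbp at 0.93. On the other side, Per1 correlated with Nr1d1 at 0.94 and with Cry1 at 0.93. The lowest value was -0.78 between Cry1 and Nr1d2. Cry2 had no value above the 0.53 it had with Nr1d2, and Nr1d2 was negative with each of the other 8 genes. These values share the libraries, their groups and their scaling, and are given as a description. Of the 10448 other genes that averaged 100 or more normalized counts, those most like Per1 were Csrnp1, Fos and Egr1, each with r = 0.998. For Per2 they were Ptpn21 (0.985), Trib2 (0.981) and Ctnnd1 (0.980), for Nr1d1 Fam135a (0.977), Maml1 (0.973) and Mbd5 (0.972), and for Dbp Arrdc4 (0.987), Fzd2 (0.984) and Otulinl (0.982).

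Among other genes of the clock machinery, a pair of transcriptional repressors rose most with serum. Of 18 listed genes 17 were tested, and Rorb was at 0 in all libraries. With control siRNA serum raised 4 of them (Bhlhe40, Nfil3, Csnk1e and Fbxw11) and lowered 1, Timeless, and with Lap2 siRNA it raised 6 and lowered 1. Over all genes tested these shares were 15.6% and 13.9% under control siRNA and 18.3% and 14.9% in Lap2-depleted cells. Bhlhe40, which encodes the E-box repressor DEC1, went from 743, 769 and 688 to 8551, 8149 and 7824 with control siRNA and from 786, 944 and 984 to 8215, 8478 and 9929 with Lap2 siRNA. Its log2 fold changes were 3.48 ± 0.08 and 3.30 ± 0.08 (edgeR adjusted p = 1.56e-26 and 6.53e-26), beside 2.02 and 2.05 for Per1. Nfil3, the repressor that competes with Dbp and Tef for D-boxes, rose by 3.21 ± 0.09 and 2.76 ± 0.08 (edgeR adjusted p = 2.22e-25 and 5.38e-24). It was also higher with Lap2 siRNA in starved cells (0.68 ± 0.09, edgeR adjusted p = 2.74e-07) and in stimulated cells (0.23 ± 0.07, adjusted p = 0.0145). Csnk1e, the kinase CK1ε that phosphorylates Period proteins, rose by 0.79 ± 0.07 and 0.83 ± 0.07 with serum (edgeR adjusted p = 2.11e-11 and 1.56e-11), and Timeless fell by 0.40 and 0.94 (adjusted p = 0.00169 and 1.88e-09). In 0.3% and 15% FBS, Lap2 siRNA lowered Csnk1e (-0.45 and -0.41, edgeR adjusted p = 3.62e-06 and 1.91e-05) and Rora (-0.83 and -0.36, 5.16e-08 and 0.00893). In 0.3% FBS it raised Bhlhe40 (0.30, adjusted p = 0.00459) and Timeless (0.31, 0.00803). Arntl, the gene of BMAL1, was between 390.5 and 500.5 in all 12 libraries and passed no test, with edgeR adjusted p of 0.196 or more. Lap2 siRNA raised 4 and lowered 4 of the 17 in 0.3% FBS (17.8% and 18.6% of all genes) and raised 1 and lowered 3 in 15% FBS (11.4% and 12.1%). The medians of the 17 were -0.06 and 0.12 for serum with control and Lap2 siRNA and 0.06 and 0.10 for Lap2 siRNA in 0.3% and 15% FBS, beside -0.01, 0.00, 0.01 and 0.02 over all genes.

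Genes linked to signals that set the clock were then examined. Of 9 genes of the CREB pathway, which acts on CREs, serum raised 2 (Sik1 and Atf1) and lowered 1 with control siRNA, and raised 3 (Sik1, Atf1 and Crem) and lowered 1 with Lap2 siRNA, beside 15.6% raised and 13.9% lowered, and 18.3% and 14.9%, of all genes. Sik1, the kinase that limits CREB coactivators, rose by 1.43 ± 0.07 and 1.85 ± 0.07 (edgeR adjusted p = 7.27e-18 and 3.48e-20). Lap2 siRNA lowered 6 of the 9 and raised 2 in 0.3% FBS, where 18.6% of all genes fell and 17.8% rose, with Sik1 at -1.17 ± 0.07, Crem at -0.97 ± 0.18, Rps6ka5 at -0.68 ± 0.14 and Crtc3 at -0.59 ± 0.09 (edgeR adjusted p = 2.24e-14, 4.22e-05, 2.48e-04 and 5.09e-06). In 15% FBS it lowered 4 and raised 2, beside 12.1% and 11.4% of all genes. Medians of the 9 were 0.02 and 0.06 for serum and -0.58 and -0.22 for Lap2 siRNA, beside -0.01, 0.00, 0.01 and 0.02 over all genes. Genes known to respond to glucocorticoids, another signal that sets the clock, were 8, of which 7 were tested and Zbtb16 was at 0. Serum raised 5 and lowered 1 of the 7 with control siRNA, and raised 4 and lowered 2 with Lap2 siRNA, with medians of 0.40 and 0.39. Over all genes tested, 15.6% rose and 13.9% fell under control siRNA and 18.3% and 14.9% in Lap2-depleted cells, and the medians were -0.01 and 0.00. Errfi1, an inhibitor of the EGF receptor, rose by 6.77 ± 0.08 and 6.01 ± 0.08, Klf9 by 3.18 ± 0.10 and 2.97 ± 0.09, and the kinase gene Sgk1 by 2.55 ± 0.07 and 1.27 ± 0.06, while Tsc22d3 fell by 0.51 and 0.69 (edgeR adjusted p of 4.05e-05 or less). Fkbp5 did not pass the test with control siRNA (0.15, edgeR adjusted p = 0.285) and fell with Lap2 siRNA (-0.34, 0.00463). Whether a glucocorticoid signal lay behind any of these values was not tested. With Lap2 siRNA 5 of the 7 were higher and 1 lower in 0.3% FBS, and 2 were higher and 3 lower in 15% FBS, with medians of 0.37 and 0.10, beside 0.01 and 0.02 over all genes, of which 17.8% rose and 18.6% fell in 0.3% FBS and 11.4% and 12.1% in 15% FBS.

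Among 7 genes known as outputs of the clock, 6 were tested, of which serum raised 4 and lowered 0 with either siRNA, beside 15.6% raised and 13.9% lowered under control siRNA and 18.3% and 14.9% in Lap2-depleted cells over all genes. These were Klf10 (4.48 ± 0.07 and 4.92 ± 0.08), the deubiquitinase gene Usp2 (1.61 ± 0.13 and 1.60 ± 0.13), Cdkn1a, which encodes the cell cycle inhibitor p21 (1.09 ± 0.09 and 0.84 ± 0.09), and Wee1, the kinase that holds back mitosis (1.03 ± 0.09 and 0.40 ± 0.09). Each had an edgeR adjusted p of 3.05e-04 or less. Medians of the 6 were 1.06 and 0.62, beside -0.01 and 0.00 over all genes. Lap2 siRNA raised 2 and lowered 1 of the 6 in 0.3% FBS and changed 0 of the 6 in 15% FBS, with medians of 0.06 and -0.01, beside 0.01 and 0.02 over all genes, of which 17.8% rose and 18.6% fell in 0.3% FBS and 11.4% and 12.1% in 15% FBS. Klf10 and Cdkn1a are also known to answer serum directly, and the lists are described here by their counts and medians alone.

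**Figure D4:**
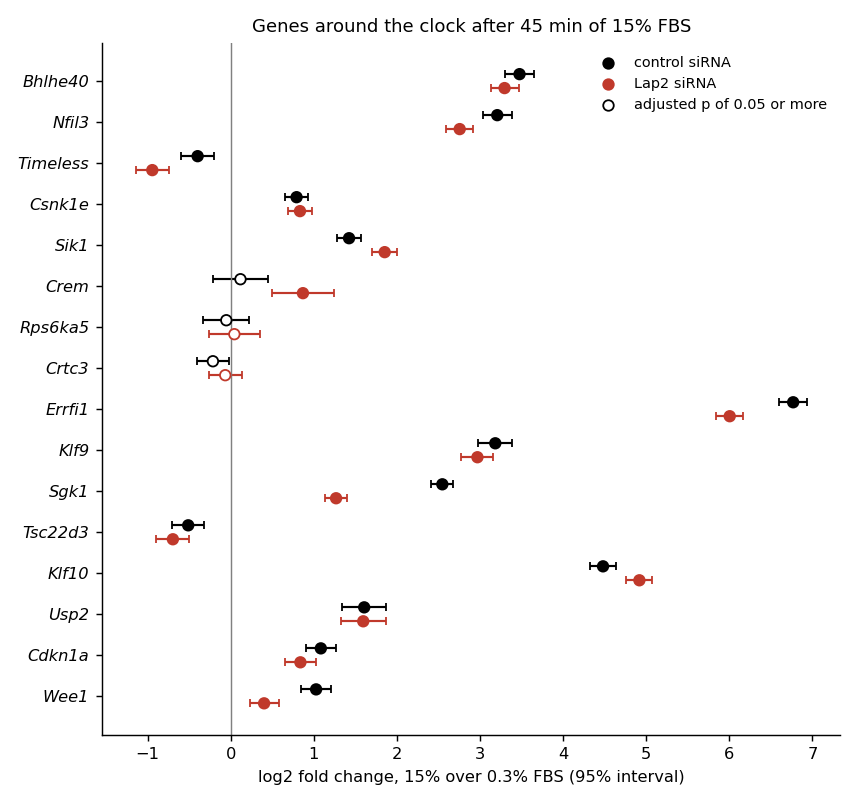
Log2 fold change after serum (horizontal axis, 15% over 0.3% FBS) of 16 genes from the 4 lists, with control siRNA (black) and Lap2 siRNA (red). Bars are 95% intervals and open circles did not pass the test. Errfi1, at 6.77 and 6.01, and Klf10, at 4.48 and 4.92, rose most, and Timeless and Tsc22d3 fell with both siRNAs.

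Some of the clock genes share exon bases with a gene on the other strand, and the sources used here do not state whether reads were counted by strand. Nr1d1 shares 263 exonic bases with Thra, a thyroid hormone receptor gene. Thra was at 4110, 4292 and 4132 in starved control cells and did not pass the test for serum with control siRNA (-0.10 ± 0.07, edgeR adjusted p = 0.313), where Nr1d1 rose. It was lower with Lap2 siRNA in 0.3% FBS (-0.74 ± 0.07, edgeR adjusted p = 6.92e-11), where Nr1d1 did not pass the test. Serum raised Thra in Lap2-depleted cells by 0.63 ± 0.07 (edgeR adjusted p = 2.34e-09), where Nr1d1 rose by 0.78. Dbp shares 539 exonic bases with Sphk2, a sphingosine kinase gene, which fell with serum by 0.49 with control siRNA and by 0.52 with Lap2 siRNA (edgeR adjusted p = 3.47e-05 and 1.67e-05). Sphk2 differed by -0.02 ± 0.09 between the siRNAs in 0.3% FBS (edgeR adjusted p = 0.868), where Dbp was lower by 1.29 on the log2 scale. The genes that overlap with exons of Tef (Gm17597, 193 bases) and Cry2 (D930015M05Rik, 295 bases) had at most 5.51 normalized counts in any library. Camta1, which overlaps with Per3, and Ube2n-ps1 and Gm43658, which overlap with Clock, share 0 exonic bases with them, and Per1, Per2, Cry1 and Nr1d2 overlap with no annotated gene in GENCODE M21. No reads were traced to a strand here, so the part of the overlapping genes in the values of Nr1d1 and Dbp was not tested.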

How the data were processed

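RNA-seq libraries of NIH 3T3 cells (12, in 4 groups of 3, from the sample labels) were analysed from the deposited counts of reads per gene. The authors aligned the reads to mm10 with TopHat2, counted them with HTSeq and did not normalize them. Tool versions and the strand setting are not given in the sources used here. Ribosomal RNA was depleted before directional libraries were made. Total counts of 18026298 to 26265253 per library gave standard errors of 0.06 to 0.12 for the pairwise log2 fold changes of the clock genes.

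From the counts, edgeR 4.0.16 (R 4.3.3) was run with TMM scaling, glmQLFit and glmQLFTest on 18668 genes (more than 1 read in 3 or more libraries), with 1 mean per group, 5 contrasts and Benjamini-Hochberg adjustment (threshold 0.05). The study used DESeq. Intervals are at 95%. Exon lengths and overlaps came from GENCODE M21, and coordinates in the count files matched it for 91.4% of shared genes. Likeness was Pearson's r of log2 CPM (prior count 2). The fit was tested on simulated data. Alternatives were DESeq2 1.42.0, total counts, upper-quartile factors, filterByExpr (13987 genes), no filter (24824 genes), only the 2 groups compared, a replicate block and each library left out.

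All 10 clock genes are named in each contrast. From each of the 4 related lists, up to 4 genes are named with the largest log2 fold change among those passing the test in a pairwise contrast and averaging at least 100 normalized counts, besides genes that overlap a clock gene, the 3 genes most like Per1, Per2, Nr1d1 and Dbp, and Tmpo. Arntl, Atf1, Fbxw11, Fkbp5, Rora, Rorb and Zbtb16 are named outside this rule, after their values were seen. The members and lists were chosen with earlier results of these data known. Markers were used to check the labelled cell type. Figures were drawn with matplotlib.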

Additional observations from a re-analysis of the deposited data

Results flagged for a closer look

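The serum response of 3 of the 10 clock genes differed between the siRNAs by a test of the difference itself (edgeR's quasi-likelihood test, Benjamini-Hochberg over 18668 genes). Over all genes tested, the response was called higher with Lap2 siRNA for 7.09% and lower for 6.51%. For Dbp the log2 response was higher with Lap2 siRNA by 0.95 (adjusted p = 1.41e-05), from -1.14 with control siRNA to -0.18. For Tef it was higher by 0.45 (adjusted p = 5.53e-04), from -0.56 to -0.12. In both genes the level in starved Lap2-depleted cells was already close to that of stimulated control cells, with means of 310.1 and 344 for Dbp and of 1846 and 1899 for Tef. Starved control cells, which also enter the difference, had means of 757.6 for Dbp and 2802 for Tef. For Per2 the response was lower with Lap2 siRNA, by -0.45 (adjusted p = 0.0299), from 1.03 to 0.59, and this call was lost without any 1 of 6 libraries. What underlies these differences was not tested.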

How the results depend on the processing

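Over 7 other settings, 321 of 340 log2 fold changes of the clock genes kept their call, 2 lost it, 17 gained one and 0 changed sign as a called value. Scaling to total counts moved counts most, to 5 lower for serum with control siRNA (3 under TMM), 4 lower for serum with Lap2 siRNA (2 under TMM), 3 higher with Lap2 siRNA in 0.3% FBS (1 under TMM), and 2 higher and 1 lower in 15% FBS (1 and 3 under TMM). Of all 18668 genes, total counts called 5847 and 5951 lower for serum with control and Lap2 siRNA (2597 and 2777 under TMM). With Lap2 siRNA they called 4692 higher in 0.3% FBS (3330 under TMM), and 3471 higher and 1678 lower in 15% FBS (2125 and 2250 under TMM). Shares over all genes under the remaining settings, and with a library left out, are not given here. Upper-quartile factors gave 4 lower for serum with Lap2 siRNA and 2 higher with Lap2 siRNA in 0.3% FBS, DESeq2 also gave 2 higher there, and filterByExpr and the fit of only the 2 groups compared each gave 5 lower with Lap2 siRNA in 15% FBS, where Cry1 and Tef were added. With each of the 12 libraries left out, 580 of 600 values kept their call, 11 lost it and 9 gained one. Counts then ranged from 5 to 5 higher and 3 to 4 lower for serum with control siRNA, 5 to 5 and 1 to 2 for serum with Lap2 siRNA, 1 to 3 and 4 to 4 for Lap2 siRNA in 0.3% FBS, 1 to 2 and 1 to 5 for Lap2 siRNA in 15% FBS, and 2 to 2 and 0 to 2 for the difference between the responses. Leaving out replicate 1 of Lap2 siRNA in 0.3% FBS, the library that stood apart from its group, gave the upper counts of 3, 5 and 2. Apart from the scaling, whose shift of the median of all genes is given above, the cause of these changes was not tested.

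Same-numbered libraries, by their order within each group, did not deviate together (correlations from -0.03 to 0.04 over 18 pairs, 0 of them over 0.1), so the numbers were not taken as pairs. Pairs of libraries with other numbers had correlations from -0.04 to 0.04, and no other pairing was fitted. With the replicate block, serum with control siRNA still raised 5 and lowered 3 clock genes, and all 50 calls were the same. No libraries were identical (0 pairs). With 3 libraries per group, the standard errors of the pairwise log2 differences of the clock genes ranged from 0.06 to 0.12, which limits what could be detected.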
